A study of Mus musculus with 18 samples.

Results

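The genes described here were 10 components of Notch signaling, comprising 3 receptors (Notch1, Notch2 and Notch3), 2 ligands (Jag1 and Dll1) and 5 target genes (Hes1, Hey1, Hey2, Heyl and Nrarp). They were chosen by symbol, through the Ensembl identifier of each gene in the count table, out of 48023 genes listed. Of the 10, 7 had enough counts to be tested among 15071 genes, while Hey1, Heyl and Nrarp did not and are given as counts. The cells were mouse brown preadipocytes from the stromal-vascular fraction of brown fat, immortalized with SV40 T antigen, and they were treated with vehicle (Veh) or with FGF6, a secreted fibroblast growth factor, at 200 ng/ml. RNA was sequenced after 4, 8 and 24 h, with 3 libraries in each of the 6 groups and 18 in all. All groups shared the same immortalized line, which limits them as a model of primary preadipocytes, and the labels do not say whether the 3 libraries of a group came from separate cultures, so p-values measure only the spread between these libraries. Library totals ran from 24327816 to 33471980 counts. Replicate 3 of vehicle at 24 h stood apart, with a chi-square per degree of freedom of 34.5 and 37.6 against the other replicates of its group, where all other pairs within a group lay between 2.34 and 7.05. Of its difference from them, 92.6% came from 8 genes, led by CT010467.1 (71.4-fold higher in it) and Lars2 (11.7-fold) and including the mitochondrial ribosomal RNAs mt-Rnr1 and mt-Rnr2, none of which is a Notch gene. Values at 24 h are therefore also given without it.

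Notch receptors are membrane proteins that are activated by ligands on a neighboring cell. Ligand binding exposes the receptor to ADAM proteases and then to gamma-secretase, which releases the intracellular domain. That domain enters the nucleus and, together with the DNA-binding protein RBPJ and a Mastermind coactivator, switches on targets such as the Hes and Hey repressors. Fringe glycosyltransferases set which ligands a receptor answers to. In adipose progenitors, Notch activity is known mainly as a brake on differentiation and on the brown fat program.

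With FGF6 the Notch receptors moved in different directions. Notch3 fell at every time point and was 21.5-fold lower at 24 h. Notch2 rose at every time point, by 1.36-fold to 1.53-fold. Notch1 and Jag1 rose at 4 and 8 h, after which Notch1 was lower than in vehicle and Jag1 did not pass the test. Hes1 rose at 8 and 24 h. Dll1 fell at 24 h and also at 8 h, where the groups overlapped and the call was lost without some single libraries.

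At 4 h, 3 of the 7 tested members rose and 1 fell at a false discovery rate (FDR) under 0.05 by edgeR's quasi-likelihood test, against 28.6% higher and 34.2% lower among all genes tested. At 8 h, 4 rose and 2 fell, against 32.4% higher and 38.4% lower overall. At 24 h, 2 rose and 4 fell, against 35.9% higher and 37.9% lower, and the members' counts were 2 and 4 also without replicate 3 of vehicle. Without that library the 24 h log2 fold change was -4.43 for Notch3, -0.40 for Notch1, 0.49 for Notch2, 0.10 for Jag1, -1.17 for Dll1, 0.69 for Hes1 and -2.39 for Hey2, each on the same side of the threshold as with it. The median log2 fold change over the 7 members was 0.32, 0.45 and -0.36 at 4, 8 and 24 h, beside -0.048, -0.050 and -0.022 over all genes. Calls were common among all genes at each time, so the members are described by the size and time course of their changes.

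**Figure D1:**
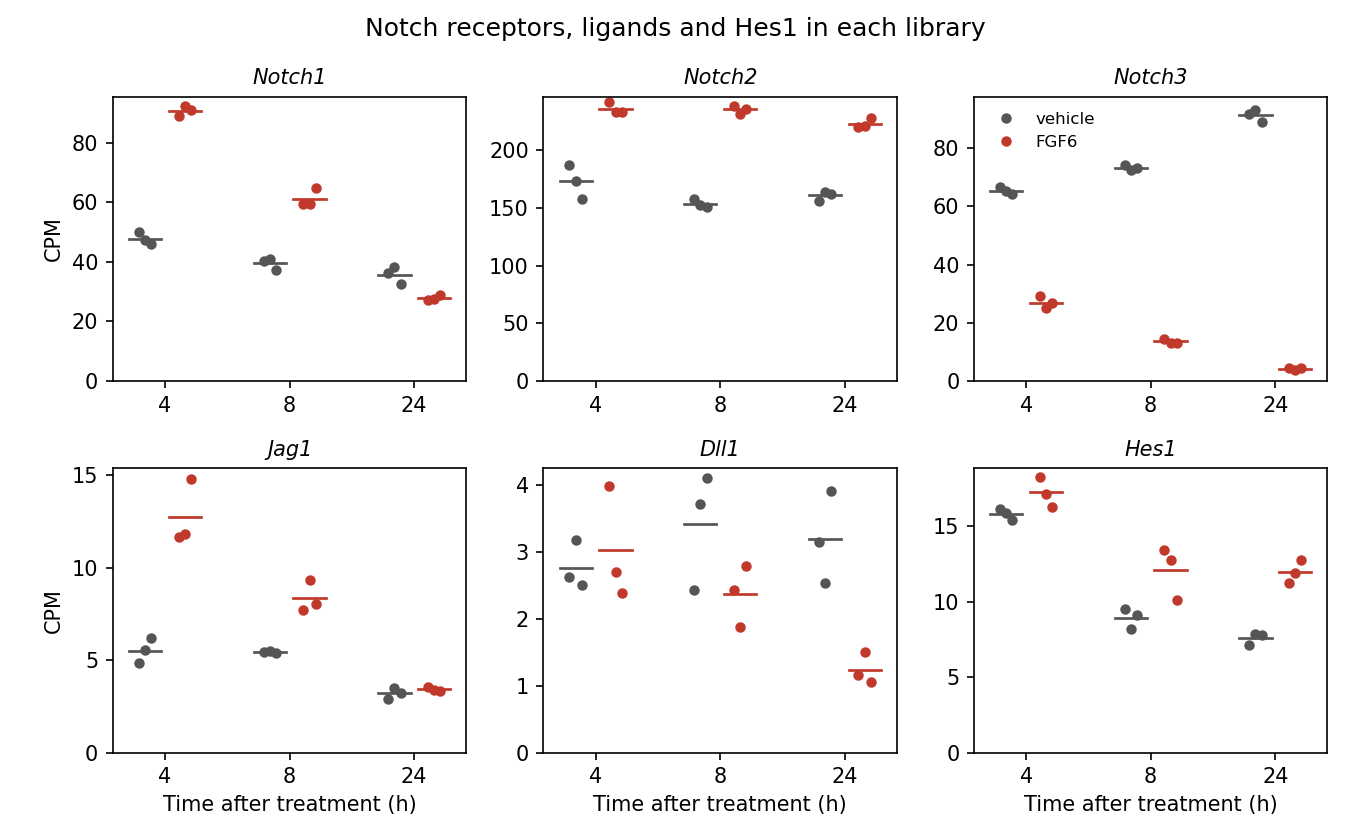
Depth-scaled read counts (CPM, TMM-scaled) of the 6 best-measured members (vertical axis, linear, a different range in each panel) against time after treatment in hours, with 1 point per library and a horizontal line at the mean of 3 libraries, grey for vehicle and red for FGF6. Notch3 falls from 27.0 to 4.25 CPM across the FGF6 groups while it lies between 65.4 and 91.3 CPM in the vehicle groups, and Notch1 crosses from above vehicle at 4 h to below it at 24 h.

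Notch3 (ENSMUSG00000038146, chr17:32120820-32166852, minus strand, GRCm38) encodes a receptor best known from mural cells of small vessels and from mesenchymal progenitors. In vehicle it was measured at 66.5, 65.3 and 64.3 CPM at 4 h, at 74.2, 72.3 and 73.2 CPM at 8 h and at 91.7, 93.3 and 88.8 CPM at 24 h. With FGF6 the values were 29.1, 25.1 and 26.7 CPM at 4 h, 14.5, 13.1 and 13.1 CPM at 8 h and 4.45, 3.89 and 4.40 CPM at 24 h. All FGF6 libraries were below all vehicle libraries, also across time points. The log2 fold change was -1.28 (SE 0.0496) at 4 h, -2.43 (SE 0.0539) at 8 h and -4.42 (SE 0.0646) at 24 h, with edgeR adjusted p of 2.57e-17, 1.65e-22 and 2e-26. Part of the widening was on the vehicle side, where Notch3 rose by 0.16 from 4 to 8 h and by 0.32 from 8 to 24 h on the log2 scale (adjusted p = 0.00457 and 1.91e-06, edgeR). Within the FGF6 libraries it fell by 0.98 and then by 1.68 on the same scale (adjusted p = 4.67e-13 and 1.86e-15, edgeR). Of its 8089 exonic bases, 488 overlapped Gm17276 on the opposite strand, a gene with at most 3 counts in any library.

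Notch1 (ENSMUSG00000026923, chr2:26457903-26516663, minus strand), the receptor with the broadest known role in cell fate choice, had the opposite early response. At 4 h it stood at 49.9, 47.2 and 45.9 CPM in vehicle and at 88.8, 92.2 and 90.9 CPM with FGF6. At 8 h the values were 40.4, 40.9 and 37.3 CPM against 59.6, 59.4 and 64.7 CPM, and at 24 h they were 36.3, 38.2 and 32.5 CPM against 27.3, 27.5 and 29.0 CPM. The groups did not overlap at any time, but their order turned between 8 and 24 h. The change was 1.90-fold up at 4 h (log2 0.93, SE 0.0513), 1.55-fold up at 8 h (log2 0.63, SE 0.053) and 1.28-fold down at 24 h (log2 -0.36, SE 0.0575), with edgeR adjusted p of 3.45e-14, 8.45e-11 and 4.59e-06. Notch1 shared 1389 of its 14232 exonic bases with genes on the opposite strand, which held at most 30 counts per library against 749 or more for Notch1.

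Notch2 (ENSMUSG00000027878, chr3:98013527-98150361, plus strand) was the most abundant receptor and rose at each time. Vehicle libraries held 187, 174 and 158 CPM at 4 h, 158, 152 and 151 CPM at 8 h and 156, 164 and 162 CPM at 24 h. The FGF6 libraries held 242, 233 and 233 CPM, then 239, 232 and 236 CPM, then 221, 221 and 228 CPM. Every FGF6 library thus exceeded every vehicle library of any time, and the FGF6 level itself did not pass the test for a change from 4 to 8 h (log2 -0.0025, 95% interval -0.084 to 0.079) or from 8 to 24 h (log2 -0.078, interval -0.16 to 0.0044). The log2 fold change against vehicle was 0.45, 0.62 and 0.47 (SE 0.042, 0.0422 and 0.0422), with edgeR adjusted p of 9.66e-10, 1.43e-12 and 2.08e-10.

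To compare the receptors with each other, CPM was divided by the exonic length in kilobases. That length counts all annotated exons of a gene, with 14232 bases for Notch1, 10782 for Notch2 and 8089 for Notch3. It can exceed the length of the transcript expressed, so shares and order across genes are approximate. Each receptor was expressed as a share of the sum over Notch1 to Notch4. Notch3 made up 29.3% ± 1.23 of this sum in vehicle and 10.5% ± 0.601 with FGF6 at 4 h (SD, n = 3). At 8 h its share was 34.6% ± 0.44 against 5.997% ± 0.316, and at 24 h it was 39.2% ± 0.603 against 2.24% ± 0.155. Notch2 had a larger share with FGF6, with 58.1% against 69.0% at 4 h, 54.4% against 78.1% at 8 h and 51.8% against 88.2% at 24 h. For Notch1 the share was 12.2% against 20.1% at 4 h and 10.6% against 15.4% at 8 h, and at 24 h it was 8.69% ± 0.569 against 8.36% ± 0.114 for which the exact permutation test (two-sided) gave p = 0.4. The other differences in share between FGF6 and vehicle for these 3 receptors had an exact permutation p of 0.1, the smallest that 3 against 3 libraries can give, and none of these groups overlapped. The sum itself was 27.6 ± 1.63 CPM per kb in vehicle and 31.7 ± 0.626 with FGF6 at 4 h, 26.2 ± 0.513 against 28.0 ± 0.499 at 8 h and 28.8 ± 0.647 against 23.5 ± 0.472 at 24 h, each with an exact permutation p of 0.1. Without replicate 3 of vehicle, the vehicle shares at 24 h were 39.4% for Notch3, 51.2% for Notch2 and 9.02% for Notch1, as means of 2 libraries chosen after seeing the data. Among receptor transcripts, Notch2 thus had the largest share in every group, at 51.8% in vehicle and 88.2% with FGF6 at 24 h. Receptor protein was not measured.

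**Figure D2:**
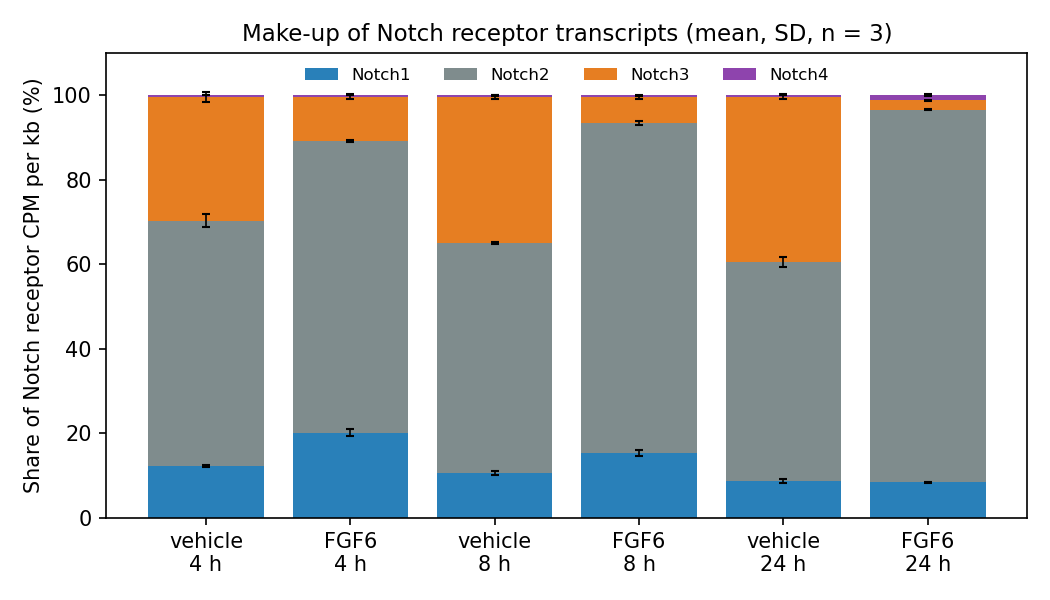
Stacked bars of the share of each Notch receptor in the summed receptor CPM per kb (vertical axis, percent) in the 6 groups, as the mean of 3 libraries, with the SD of each receptor drawn at the top of its own segment. The Notch3 segment shrinks from 39.2% in vehicle to 2.24% with FGF6 at 24 h, and the Notch2 segment grows from 51.8% to 88.2%.

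Among the ligands, Jag1 (ENSMUSG00000027276, chr2:137081456-137116644, minus strand), a Jagged-type ligand, rose early and then came back to the vehicle level. At 4 h it was measured at 4.83, 5.53 and 6.18 CPM in vehicle and at 11.7, 11.8 and 14.8 CPM with FGF6, and the groups were far apart. At 8 h the values were 5.43, 5.47 and 5.37 CPM against 7.72, 9.31 and 8.01 CPM. At 24 h they were 2.91, 3.47 and 3.24 CPM against 3.54, 3.36 and 3.34 CPM, where the groups overlapped. The log2 fold change was 1.21 (SE 0.106) at 4 h, 0.62 (SE 0.111) at 8 h and 0.087 (SE 0.141, 95% interval -0.19 to 0.36) at 24 h, with edgeR adjusted p of 3.05e-10, 2.19e-05 and 0.59. Jag1 also fell with time in vehicle, by 0.75 on the log2 scale from 8 to 24 h (adjusted p = 2.65e-05, edgeR).

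Dll1 (ENSMUSG00000014773, chr17:15367354-15376872, minus strand), a Delta-type ligand, was measured at 1.06 to 4.11 CPM over the 18 libraries and fell late. At 4 h it was at 2.63, 3.18 and 2.50 CPM in vehicle and 3.99, 2.71 and 2.40 CPM with FGF6, with a log2 fold change of 0.13 (SE 0.214) and an edgeR adjusted p of 0.627. At 8 h the values were 2.43, 3.72 and 4.11 CPM against 2.44, 1.88 and 2.79 CPM, and at 24 h they were 3.15, 2.53 and 3.91 CPM against 1.17, 1.50 and 1.06 CPM. The groups overlapped at 4 and 8 h and were apart at 24 h. The log2 fold change was -0.53 (SE 0.216) at 8 h and -1.34 (SE 0.246) at 24 h, with edgeR adjusted p of 0.031 and 2.77e-05. The call at 8 h did not hold without replicate 2 or 3 of vehicle (log2 -0.46 and -0.38) or without replicate 1 or 2 of FGF6 (-0.56 and -0.39), with edgeR adjusted p from 0.0534 to 0.158. Of the 4219 exonic bases of Dll1, 867 lay opposite A930024N18Rik, which had 0 to 12 counts per library against 29 to 120 for Dll1.

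Among the targets, Hes1 (ENSMUSG00000022528, chr16:30064384-30067796, plus strand), a transcriptional repressor and a standard readout of Notch activity, was the only one with more than 14 counts in any library. It fell with time in both arms and fell less with FGF6. At 4 h it stood at 16.2, 15.9 and 15.4 CPM in vehicle and 18.3, 17.2 and 16.3 CPM with FGF6. At 8 h the values were 9.50, 8.17 and 9.14 CPM against 13.4, 12.8 and 10.1 CPM, and at 24 h they were 7.11, 7.84 and 7.78 CPM against 11.3, 11.9 and 12.8 CPM. FGF6 libraries were above vehicle at every time, narrowly so at 4 h. The log2 fold change was 0.13 (SE 0.0812) at 4 h, 0.45 (SE 0.0907) at 8 h and 0.66 (SE 0.0946) at 24 h, with edgeR adjusted p of 0.186, 0.000103 and 7.9e-07. A fit to the libraries of each time alone put the 4 h value at 0.17 with an adjusted p of 0.0426 (edgeR). From 4 to 8 h Hes1 fell by 0.82 on the log2 scale in vehicle and by 0.50 with FGF6 (adjusted p = 2.57e-08 and 2.16e-05, edgeR), and from 8 to 24 h it fell by 0.24 in vehicle (adjusted p = 0.0456, edgeR) while the FGF6 value was -0.025 (adjusted p = 0.826, edgeR).

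The Hey repressors and Nrarp, a target that feeds back on the Notch complex, were near the limit of detection. Hey2 (ENSMUSG00000019789, chr10:30832359-30842801, minus strand) had 14, 5 and 8 counts in vehicle and 13, 8 and 9 with FGF6 at 4 h, 9, 10 and 2 against 3, 4 and 2 at 8 h, and 3, 10 and 4 against 2, 0 and 1 at 24 h. Only the 24 h groups did not overlap. There the summed counts of 17 and 3 gave a depth-scaled ratio of FGF6 to vehicle of 0.183 (95% interval 0.0343 to 0.631, counting error only), and the fitted log2 fold change was -2.31 (SE 0.85) with an edgeR adjusted p of 0.0172. That call was lost without replicate 2 of the 24 h vehicle group or without replicate 2 of the 24 h FGF6 group (log2 -1.76 in both, adjusted p = 0.124 and 0.0782, edgeR).

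Hey1 (ENSMUSG00000040289) had 5, 11 and 7 counts in vehicle and 3, 3 and 4 with FGF6 at 4 h, 5, 2 and 9 against 0, 2 and 4 at 8 h, and 5, 6 and 5 against 11, 6 and 3 at 24 h. The ratio of summed counts was 0.488 at 4 h, 0.408 at 8 h and 1.29 at 24 h, and each 95% interval (0.207 to 1.07, 0.131 to 1.1 and 0.637 to 2.67) included equal levels. Heyl (ENSMUSG00000032744) had 0 to 3 counts and was at 0 in 8 libraries. Nrarp (ENSMUSG00000078202) had 3 counts in all, spread over 3 libraries, with 15 libraries at 0. A count of 0 allows up to 3 counts, or 0.0905 to 0.126 CPM depending on the library. For Heyl and Nrarp, levels under about this limit, and changes among them, were therefore not detectable at this depth. Of the 2582 exonic bases of Nrarp, 2051 lay opposite Gm38287. With the strand setting of the counting unknown, reads there may be missing from Nrarp, so its low counts need not mean a low level.

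**Figure D3:**
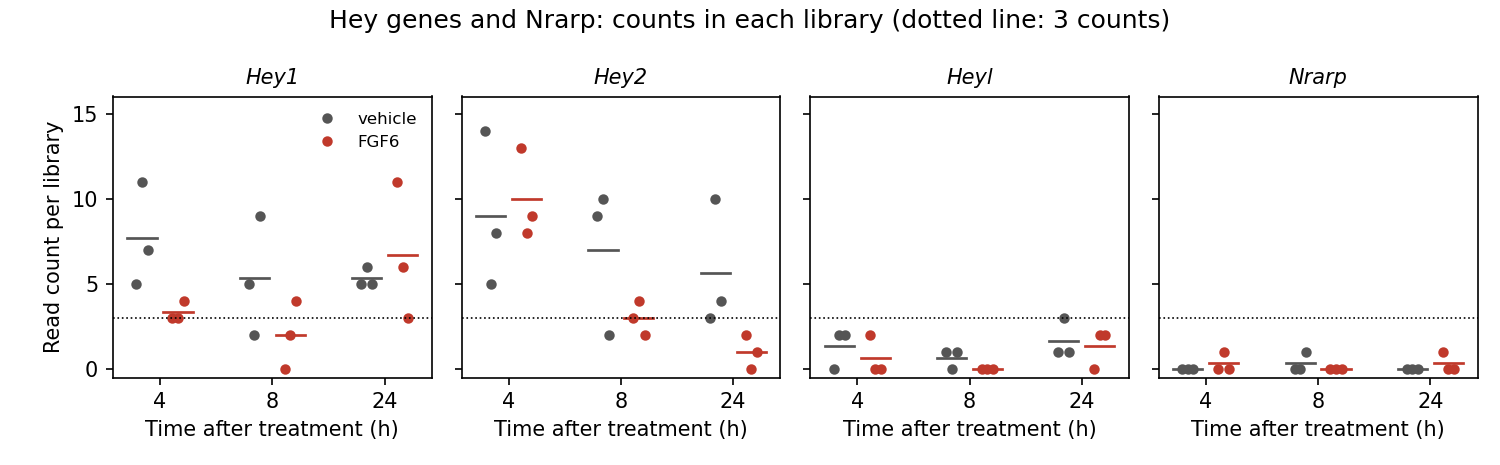
Raw read counts (vertical axis, linear) of Hey1, Hey2, Heyl and Nrarp in each library against time after treatment in hours, grey for vehicle and red for FGF6, with a horizontal line at the mean of 3 libraries and a dotted line at 3 counts, the limit that a count of 0 allows. No library exceeds 14 counts, and the FGF6 libraries of Hey2 at 24 h hold 0 to 2.

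Per kilobase, the members spanned a wide range, and their order changed with FGF6. In vehicle at 24 h it ran from Notch2 (14.9 ± 0.398 CPM per kb) and Notch3 (11.3 ± 0.277) through Hes1 (3.72 ± 0.199), Notch1 (2.51 ± 0.203), Dll1 (0.758 ± 0.164) and Jag1 (0.550 ± 0.0483) down to the Hey genes at 0.0578 or less and Nrarp at 0 (SD, n = 3). The libraries of neighbors in this order did not overlap, except those of Hey1 and Hey2. With FGF6 at 24 h, Notch2 (20.7 ± 0.402 CPM per kb) was followed by Hes1 (5.88 ± 0.37) and Notch1 (1.96 ± 0.0665), and Notch3 (0.525 ± 0.0382) came after Jag1 (0.586 ± 0.0188), with Dll1 at 0.295 ± 0.054. Down to Hey1 (0.0741 ± 0.0452) no neighbors overlapped, whereas Heyl, Hey2 and Nrarp did. At 4 h with FGF6 the order was Notch2, Hes1, Notch1, Notch3, Jag1 and Dll1, at 21.9, 8.47, 6.37, 3.33, 2.19 and 0.719 CPM per kb.

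An interaction test asked whether the effect of FGF6 differed from one time to another. From 4 to 8 h it changed for 5 of 7 members, against 30.6% of all genes, but for 3 without any of 7 libraries, replicates 1 and 2 of vehicle and 2 and 3 of FGF6 at 4 h and replicates 2 and 3 of vehicle and 1 of FGF6 at 8 h, where Notch2 and Hes1 missed the threshold. From 8 to 24 h it changed for 3 of 7, against 45.1%, a share near that of all genes. Notch2 and Dll1 lay at the threshold there (edgeR adjusted p = 0.0521 and 0.05), and the count was 5 with DESeq2, with no low-count filter, with at least 10 counts in every library and with only the libraries of the times compared. From 4 to 24 h it changed for 6 of 7, against 53.5%. Over the full span the change was downward for Notch1, Notch3, Jag1, Dll1 and Hey2 and upward for Hes1, and Notch2 showed a difference of 0.025 (95% interval -0.091 to 0.14) on the log2 scale. Notch1 and Jag1 each had their largest rise at 4 h, and their effects at 8 and 24 h were both lower by this test.

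Members also differed between times within an arm. In vehicle, 4 of 7 changed from 4 to 8 h (43% of all genes) and 4 of 7 from 8 to 24 h (49.2%). The latter count was 2 to 3 on leaving out any 1 of the libraries compared. It was 2 without replicate 1 of vehicle at 8 h or replicate 3 at 24 h. Among the FGF6 libraries, 5 of 7 changed from 4 to 8 h (48.2%) and 4 of 7 from 8 to 24 h (62.3%), all of them downward, and time and length of exposure to FGF6 cannot be told apart there. With 7 members, these counts do not set the members apart from all genes. These comparisons have libraries in common with those of FGF6 against vehicle.

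The other Notch pathway genes were taken from a list of 46, of which 37 were tested. At 4 h, 7 of them rose and 17 fell, at 8 h 8 rose and 18 fell, and at 24 h 11 rose and 21 fell, which can be read against the shares of all genes given above. Without replicate 3 of vehicle the 24 h counts were 10 and 21, and the 24 h values of the genes named below moved by at most 0.076 on the log2 scale. Their median log2 fold change was -0.13, -0.14 and -0.29 at the 3 times. Named here are the 11 that changed at least 2-fold at 1 or more times, with a mean of at least 1 CPM in a group and no overlap between the groups.

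In the nucleus, Rbpj, the DNA-binding partner of all Notch receptors, had the largest rise of the list at all 3 times. It was measured at 48.3, 47.2 and 46.3 CPM in vehicle and 101, 108 and 112 CPM with FGF6 at 4 h, at 42.7, 44.9 and 45.4 against 149, 142 and 140 CPM at 8 h, and at 59.8, 57.4 and 59.5 against 233, 227 and 227 CPM at 24 h. The groups were far apart each time, and the log2 fold change was 1.18, 1.70 and 1.96 (SE 0.0383, 0.0383 and 0.0374), with edgeR adjusted p of 7.47e-19, 2.24e-22 and 4.04e-24. Maml2, a Mastermind coactivator, fell by 0.31, 0.87 and 1.78 on the log2 scale (edgeR adjusted p = 1.82e-06, 5.94e-15 and 4.99e-21), ending at 13.6, 13.8 and 14.4 CPM with FGF6 against 48.2, 47.4 and 48.3 CPM in vehicle. Its paralog Maml3 rose at all 3 times and Maml1 fell at 24 h, each by less than 2-fold. Of the 8 genes of the nuclear complex, 4 rose and 1 fell at 4 h, against 28.6% higher and 34.2% lower among all genes. At 8 h 4 rose and 1 fell (32.4% and 38.4% of all genes), and at 24 h 4 rose and 2 fell (35.9% and 37.9%).

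Of the receptor-modifying enzymes, Lfng (Lunatic fringe) and Rfng (Radical fringe), which both add sugars to the receptor's extracellular repeats, fell. Lfng stood at 31.5, 29.2 and 28.6 CPM in vehicle and 9.10, 12.7 and 11.7 CPM with FGF6 at 4 h, and at 32.7, 32.9 and 31.5 CPM against 4.01, 3.75 and 4.29 CPM at 24 h. It was lower in every FGF6 library, with a log2 fold change of -1.41, -2.21 and -3.01 at 4, 8 and 24 h (SE 0.0778, 0.0862 and 0.0922; edgeR adjusted p = 3.18e-14, 1.67e-17 and 6.99e-20). Rfng fell by 0.38, 0.54 and 1.12 on the log2 scale (edgeR adjusted p = 6.8e-07, 1.2e-09 and 4.17e-15). Dtx4 and Numbl, listed with the ubiquitin ligases and endocytic regulators, fell as well. Dtx4, a Deltex ubiquitin ligase, fell by 0.75, 1.46 and 2.03 and Numbl, a Numb-like endocytic adaptor, by 0.50, 0.99 and 1.21. Neurl1b, a Neuralized-type ligase that acts on ligands, fell by 1.47, 2.10 and 1.50, and Dlk2, a Delta-like protein, by 0.53, 0.79 and 1.28, all on the log2 scale. Dlk2 at 4 h was lost as a call without replicate 3 of FGF6 (log2 -0.40, edgeR adjusted p = 0.0691), and part of its transcript overlaps Abcc10, which had 135 to 579 counts.

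Within the cleavage machinery, 10 genes were tested, and 4 fell and 2 rose at 4 h, against 34.2% lower and 28.6% higher among all genes. At 8 h 5 fell and 1 rose (38.4% and 32.4% of all genes), and at 24 h 9 fell and 1 rose (37.9% and 35.9%). Most of these changes were under 2-fold. The exceptions were Aph1b and Aph1c, near-identical gamma-secretase subunit genes between which reads can be split, so their separate values are uncertain. Aph1b fell by 1.21, 1.60 and 1.45 and Aph1c by 1.84, 1.95 and 1.84 on the log2 scale at 4, 8 and 24 h. The fourth receptor, Notch4, known from endothelium, was at 0.806, 0.875 and 0.673 CPM in vehicle and 1.93, 2.89 and 2.20 CPM with FGF6 at 24 h, a log2 fold change of 1.56 (SE 0.257, edgeR adjusted p = 6.39e-06). Its values at 4 and 8 h were -0.011 and 0.39 (adjusted p = 0.977 and 0.202, edgeR).

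**Figure D4:**
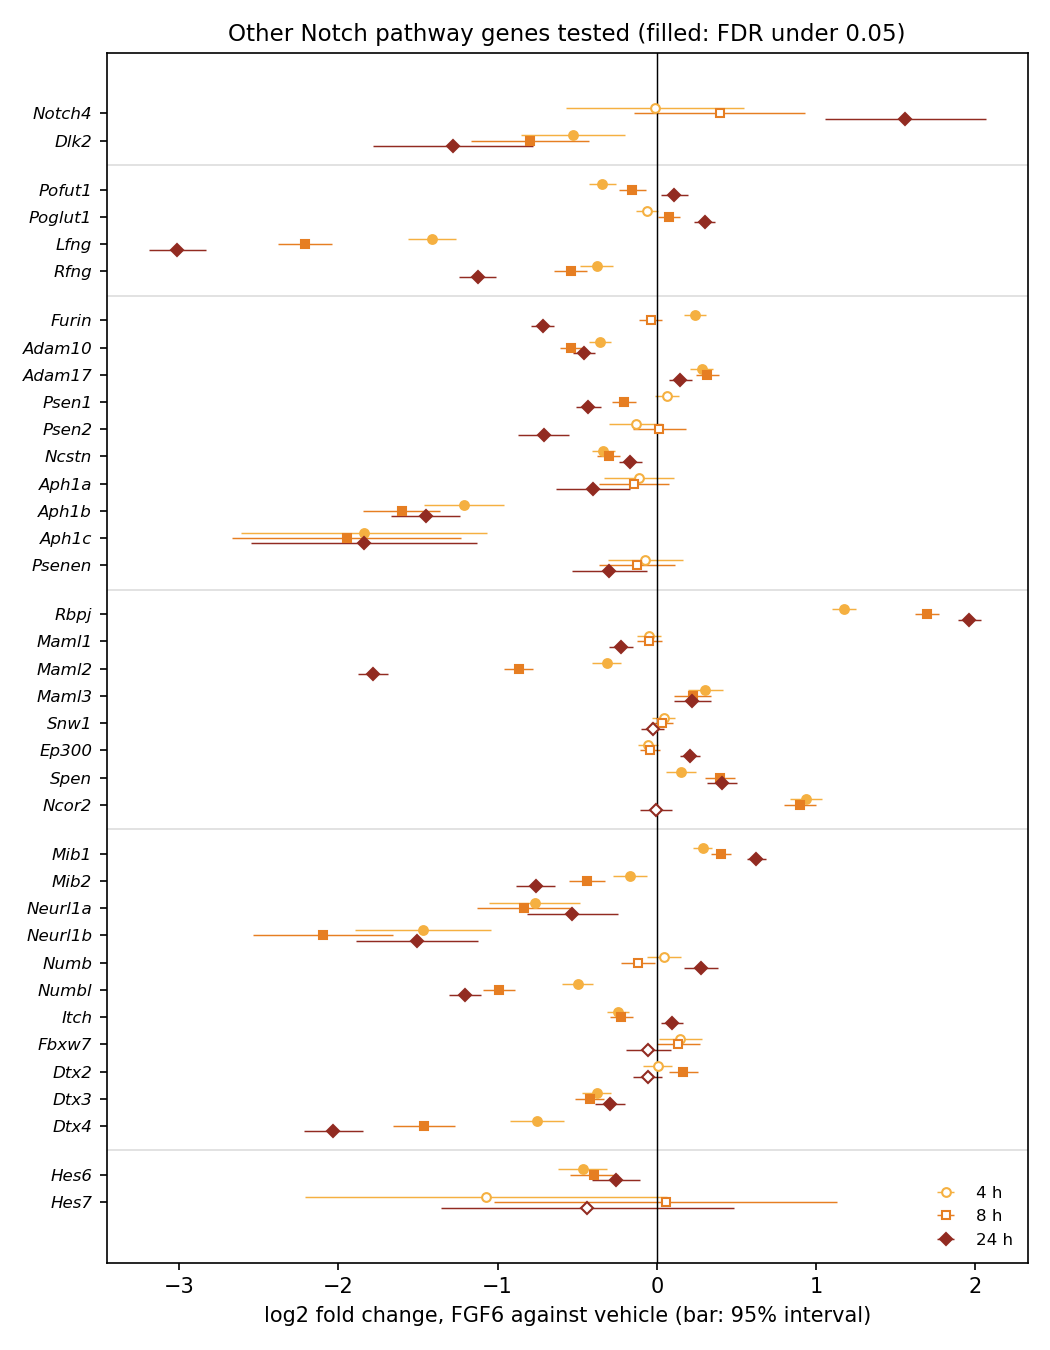
Log2 fold change of FGF6 against vehicle (horizontal axis) with 95% intervals for the 37 tested pathway genes outside the 10 members, grouped from top to bottom as other receptor and ligand genes, receptor glycosylation, receptor cleavage, nuclear complex, ubiquitin ligases with endocytic regulators, and other Hes genes. Circles stand for 4 h, squares for 8 h and diamonds for 24 h, filled where the FDR is under 0.05; Rbpj lies farthest to the right at 1.96 and Lfng farthest to the left at -3.01, both at 24 h.

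Because Lfng and Hey2 are among the genes that RBPJ is known to bind, the 250 bases upstream of the RefSeq start (GRCm38.p6) were searched on both strands for the RBPJ core TGGGAA, for its longer form GTGGGAA, for the N-box CACNAG bound by Hes proteins, for the AP-1 site TGANTCA and for the ETS site CCGGAAG. A promoter was at hand for 7 of the 10 members, the others being Hes1, Hey1 and Heyl. Of 32841 mouse promoters of the same length, 21.6% held TGGGAA, 5.41% GTGGGAA, 36.7% CACNAG, 6.75% TGANTCA and 6.91% CCGGAAG. Every match to the longer RBPJ form is also a match to the core. Below are the windows of Hey2 (chr10:30842784-30843033, minus strand), Lfng (chr5:140607091-140607340, plus strand) and Rbpj (chr5:53590096-53590345, plus strand, the upstream one of its windows at hand), shown because they held the RBPJ core, with TGGGAA or its reverse complement in capitals. The GENCODE span of Rbpj begins farther upstream, at 53466152.
Hey2: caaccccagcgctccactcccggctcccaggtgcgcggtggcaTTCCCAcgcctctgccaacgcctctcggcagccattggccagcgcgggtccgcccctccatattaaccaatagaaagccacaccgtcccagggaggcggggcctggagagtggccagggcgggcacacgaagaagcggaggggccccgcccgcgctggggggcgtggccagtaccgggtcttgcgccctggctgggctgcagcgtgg
Lfng: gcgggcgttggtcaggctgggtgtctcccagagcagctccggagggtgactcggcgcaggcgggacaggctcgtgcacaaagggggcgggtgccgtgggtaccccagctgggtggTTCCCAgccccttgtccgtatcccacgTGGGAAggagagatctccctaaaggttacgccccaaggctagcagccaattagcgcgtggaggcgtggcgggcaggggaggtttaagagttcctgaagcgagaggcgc
Rbpj: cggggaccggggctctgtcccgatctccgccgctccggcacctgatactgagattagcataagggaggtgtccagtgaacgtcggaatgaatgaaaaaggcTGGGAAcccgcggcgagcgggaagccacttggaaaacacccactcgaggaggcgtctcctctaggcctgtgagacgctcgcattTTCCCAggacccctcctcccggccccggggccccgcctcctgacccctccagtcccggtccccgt
Of the 7 member promoters, that of Hey2 alone held the core, with 1 match, and Lfng and Rbpj held 2 each. The longer form was found in Hey2 and Lfng and not in Rbpj. Among the other named pathway genes, Maml2 held 1 core match, in the window of 1 of its annotated starts. Of these genes, Lfng and Maml2 fell and Rbpj rose at all times.

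The windows of Notch3 (chr17:32166891-32167140, minus strand) and Notch1 (chr2:26503823-26504072, minus strand) are shown as those of the receptors that fell and rose most at 4 h, with CACNAG or its reverse complement in capitals. The GENCODE span of Notch1 reaches farther upstream, to 26516663.
Notch3: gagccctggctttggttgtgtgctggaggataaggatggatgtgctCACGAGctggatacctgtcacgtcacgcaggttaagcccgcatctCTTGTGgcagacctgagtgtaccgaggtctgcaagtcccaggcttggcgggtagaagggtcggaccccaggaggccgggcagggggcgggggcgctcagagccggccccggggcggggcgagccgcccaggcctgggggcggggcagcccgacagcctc
Notch1: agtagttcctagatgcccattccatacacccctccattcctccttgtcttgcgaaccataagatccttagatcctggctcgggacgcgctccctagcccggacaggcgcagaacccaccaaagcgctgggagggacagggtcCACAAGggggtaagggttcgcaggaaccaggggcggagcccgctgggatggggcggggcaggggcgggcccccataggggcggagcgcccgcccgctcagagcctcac
Neither held the RBPJ core, the AP-1 site or the ETS site, while Notch3 held 2 N-box matches and Notch1 held 1. Among the other members Nrarp held 2 N-box matches, Notch2 held 1, and 1 of the windows of Dll1 held 1 AP-1 match. A match is a run of letters and not a shown binding site, and the lack of one says nothing about factors that act elsewhere.

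Genes whose levels tracked a member most closely were sought for the receptor, the ligand and the target with the largest fold change at any time. For Notch3 they were Lox (r = 0.997), Arhgef10 (0.997) and Aoc3 (0.994), by Pearson correlation of log CPM over the 18 libraries among 12298 genes. Lox encodes a collagen cross-linking enzyme and Aoc3 an amine oxidase of adipose and vascular cells. For Dll1 they were Setdb2 (0.906), 9330175E14Rik (0.901) and Dtx3l (0.901), and for Hey2 Als2cl (0.854), Cdh22 (0.852) and Acta1 (0.851), where the low counts of Hey2 make the ranking uncertain. The libraries share the same 6 groups, so any genes with like group means correlate. Without replicate 3 of vehicle at 24 h these values of r were 0.995 to 0.997 for Notch3, 0.898 to 0.91 for Dll1 and 0.852 to 0.87 for Hey2.

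The markers of the labelled cell type and of others moved too. Of 6 stromal and preadipocyte markers, all tested, 5 fell at each time, against 34.2%, 38.4% and 37.9% of all genes at 4, 8 and 24 h. The summed level of the 6 markers was 4279 to 4605 CPM in vehicle and 781 to 836 CPM with FGF6 at 24 h, most of it Col1a1. The sixth, Cd34, rose at 8 h, from 10.5 to 14.4 CPM, and at 24 h, from 16.5 to 43.0 CPM. Pdgfrb, a receptor that stromal cells share with mural cells, which are a usual site of Notch3, went from 693 to 134 CPM at 24 h. Of the 4 mural markers 2 fell and 1 rose at 24 h, and their sum was 639 to 645 CPM in vehicle and 103 to 110 CPM with FGF6, most of it Acta2. Earlier calls were mixed, with 1 higher and 1 lower at 4 h, then 1 higher and 2 lower at 8 h. Of all genes, 28.6%, 32.4% and 35.9% were higher at 4, 8 and 24 h, beside the shares lower given above. With 4 mural markers, these counts do not set them apart from all genes. The mural marker Cspg4 had a mean of 108 CPM under FGF6 against 50.2 in vehicle at 4 h. Its later means were 42.2 against 23.8 (8 h) and 27.8 against 30.3 (24 h). For Acta2 the early means were 516 against 907 (4 h) and 376 against 980 (8 h). The pericyte marker Rgs5, at 0.387 to 1.48 CPM in the group means, fell from 1.13 to 0.387 CPM at 8 h and rose from 0.810 to 1.45 CPM at 24 h. Endothelial markers summed to 0.995 to 1.33 CPM in vehicle and 3.71 to 5.65 CPM with FGF6 at 24 h, most of the latter Cdh5. Cdh5 and Kdr, the only ones tested, both rose at 4 and 8 h. At 24 h Cdh5 rose from 0.0582 to 3.59 CPM, whereas Kdr, at 0.823 and 1.09 CPM, was not called. Tek was at 0.177 CPM in vehicle and 0 with FGF6 at 24 h, and Pecam1 and Emcn were at or near 0. The 4 adipocyte markers all fell at 24 h, and their sum was 156 to 178 CPM in vehicle and 63.4 to 70.1 CPM with FGF6, most of it Fabp4. The others were low, with Cidec going from 4.32 to 0.168 CPM and Adipoq and Plin1 from 0.612 and 0.864 CPM to 0. The leukocyte-defining markers Ptprc and Adgre1 were at or near 0 throughout, and the other 2 of that list were detected. Cd68 rose from 11.1 to 16.5 CPM at 4 h and fell from 5.83 to 3.24 CPM at 24 h, and Csf1r fell at every time, from 3.65 to 1.41 CPM at 4 h. Of the 5774 exonic bases of Csf1r, 873 lay opposite Hmgxb3, which had 1252 to 2571 counts per library. The counts of Csf1r may therefore include reads of Hmgxb3. Of the myogenic factors Myf5 was at 0, whereas Myog fell at 4 h, from 4.36 to 1.23 CPM, and at 24 h, from 3.57 to 0.364 CPM, and Myod1 from 1.77 to 0.969 CPM at 24 h. The part of these shifts in the changes of the members was not tested, and in bulk RNA fewer cells of a kind and less RNA per cell cannot be told apart.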

How the data were processed

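RNA-seq of mouse brown preadipocytes was analysed from the table of raw read counts per gene that the authors deposited. Per the study's methods, the authors mapped Illumina reads with STAR, on GRCm38.p4, and featureCounts gave the counts per gene, and their versions, annotation release and strand setting are not given in the sources used here. Reads of genes that overlap on opposite strands therefore may not be separable. If reads in shared bases were assigned to neither gene, a low partner count does not show that few were lost. The levels of Notch1, Notch3, Dll1 and Nrarp could then be too low. Identifiers were matched to GENCODE M21, which held 98.5% of them, and promoter sequences came from RefSeq (GRCm38.p6). The members and gene lists were chosen with earlier results of these data known.

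edgeR 4.0.16 in R 4.3.3 kept 15071 of 48023 genes with filterByExpr, scaled the libraries by TMM and fitted its quasi-likelihood model to 6 group means over 18 libraries. Adjustment was Benjamini-Hochberg over all genes tested, with calls made at an FDR under 0.05. Standard errors are those implied by the F statistic. CPM is per TMM-scaled library total, over genes that passed the filter. The scripts were tested on simulated data. Library totals were 24327816 to 33471980 counts, and a count of 0 was taken to allow up to 3 counts. No library was left out of the reported fits, and no library pair agreed within sampling noise. Vehicle replicate 3 at 24 h stood apart, so 24 h values are also given without it.

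Named were all 10 members and, of 46 other pathway genes, those with an FDR under 0.05, at least 2-fold change, non-overlapping groups and at least 1 CPM on average in a group. Genes like a member were the 3 with the highest Pearson correlation of log2 CPM, among genes with a mean of at least 1 CPM. Alternatives were limma-voom (limma 3.58.1, as in the study), DESeq2 1.42.0, library sizes alone, upper-quartile factors, no low-count filter, a minimum of 10 counts per gene in every library, a fit to the times compared alone, a replicate block, an FDR under 0.25 as in the study, a 2-fold minimum, and leaving out each library.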

Additional observations from a re-analysis of the deposited data

Results flagged for a closer look

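These results stand out because the effect of FGF6 on the same gene differed between time points by edgeR's interaction test. The values are differences of log2 fold changes, the later time minus the earlier one, with Benjamini-Hochberg adjusted p. For Notch3 the effect moved by -1.15 from 4 to 8 h, by -2 from 8 to 24 h and by -3.15 over the full span (edgeR adjusted p = 2e-11, 2.75e-15 and 5.31e-20). For Notch1 the same steps were -0.30, -0.99 and -1.28 (edgeR adjusted p = 0.00291, 1.37e-10 and 3.33e-13), and this is the member whose call changed sign, from a rise at 4 and 8 h to a fall at 24 h.

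The ligand Jag1 had steps of -0.58, -0.54 and -1.12 (edgeR adjusted p = 0.00522, 0.0174 and 7.61e-06). Its step from 8 to 24 h missed the threshold without replicate 2 of FGF6 at 8 h (-0.45, edgeR adjusted p = 0.0536) or replicate 2 of vehicle at 24 h (-0.49, edgeR adjusted p = 0.0524). Dll1 differed between 4 and 24 h by -1.47 (edgeR adjusted p = 0.000493).

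Hes1 moved upward, by 0.32 from 4 to 8 h and by 0.53 from 4 to 24 h (edgeR adjusted p = 0.0469 and 0.000771), and Notch2 by 0.17 from 4 to 8 h (edgeR adjusted p = 0.0325). Both 4 to 8 h values lay near the threshold. That of Hes1 was lost without each of the 12 libraries of these times but replicate 1 of FGF6 at 4 h, replicate 1 of vehicle at 8 h and replicate 3 of FGF6 at 8 h. That of Notch2 was lost without each of them but replicate 3 of vehicle at 4 h, replicate 1 of FGF6 at 4 h, replicate 1 of vehicle at 8 h and replicate 2 of FGF6 at 8 h. Hey2, at 0 to 14 counts per library, differed between 4 and 24 h by -2.63 (edgeR adjusted p = 0.0272), a call lost without any of 5 libraries, with values from -2.11 to -2.66. Those libraries were replicate 2 of vehicle and replicate 1 of FGF6 at 4 h, replicate 2 of vehicle at 24 h, and replicates 2 and 3 of FGF6 at 24 h.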

How the results depend on the processing

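Over all settings and named genes, 1215 values kept their direction and side of the threshold, 60 fell short of it, 30 newly passed it and 12 changed sign. No called value changed sign. The sign changes were those of Notch4 at 4 h (0.014 with DESeq2, 0.0142 with at least 10 counts in every library, 0.0296 with only the libraries of the times compared, and -0.098 to 0.15 leaving out 1 library), of the Notch2 effect at 24 h versus 4 h (-0.015 with at least 10 counts in every library, and -0.035 to 0.086 leaving out 1 library) and of Dll1 at 4 h (-0.075 to 0.30 leaving out 1 library). Members whose effect differed between 24 and 8 h numbered 5 with DESeq2, with no low-count filter, with at least 10 counts in every library and with only the libraries of the times compared, and 6 at an FDR under 0.25, against 3. The added genes in the 4 lists of 5 were Notch2 and Dll1. Hey2 and Aph1c could not be tested with at least 10 counts in every library, which leaves them out.

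With a 2-fold minimum, members higher were 1, 0 and 0 at 4, 8 and 24 h, and 1 member was lower at 8 h. Other pathway genes higher were then 1, 1 and 2 and lower 4, 5 and 9, and all genes higher 748, 1114 and 1122 and lower 962, 1645 and 2309. Members whose effect differed were then 1 for 8 against 4 h and 1 for 24 against 8 h, and those changed with time were 0 and 0 in vehicle and 1 from 4 to 8 h with FGF6. Leaving out 1 library gave 3 to 6 members with a differing effect between 8 and 4 h, 2 to 3 changed from 8 to 24 h in vehicle and 1 to 2 lower at 8 h. Library sizes alone moved the median of all genes at 4 h by -0.10.

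Replicate numbers in the labels share no stated batch. Correlations of deviations between same-numbered FGF6 and vehicle libraries, over 9433 genes, were 0.037, 0.153 and -0.179 at 4 h, -0.052, -0.053 and 0.13 at 8 h and -0.014, 0.021 and -0.042 at 24 h, so the numbers were not taken as pairs. With a replicate block, 4 members had a differing effect for 8 against 4 h, and 4 for 24 against 8 h. Hes1 between 8 and 4 h was then at an adjusted p of 0.0513 and Notch2 between 24 and 8 h at 0.0468 (edgeR).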
